A study of Mus musculus with 6 samples.

Results

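The proteasome subunit genes were examined in the chromatin of mouse haematopoietic stem cells (HSCs), as a named list of 35 genes: 17 of the core particle and 18 of the regulatory particle. All 35 matched 1 protein-coding gene each in a RefSeq gene table. Accessible regions were attributed to them by position, as any region inside the gene span or within 5 kb of it, which gave 88 of the 82993 regions found in the series. Accessibility was measured by ATAC-seq, in which a transposase cuts and tags open DNA. Each of 6 libraries was made from about 5000 bone marrow cells of the phenotype CD48-, CD150+, lineage-, Sca-1+, c-Kit+, sorted from wild-type C57BL/6J mice. The DMSO group (3 libraries) came from mice injected intraperitoneally with the solvent alone. The tunicamycin group (3 libraries) came from mice injected by the same route with tunicamycin at 2 mg per kg, an antibiotic that blocks N-linked glycosylation and loads the endoplasmic reticulum (ER) with misfolded protein. Age, sex and the time from injection to sorting are not in the labels used here, nor whether each library came from separate animals, so the spread between libraries may be technical. A change in the mixture of sorted cells and a change within each cell cannot be told apart in such libraries.

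The proteasome degrades proteins tagged with ubiquitin. Its core particle is a barrel of stacked rings, with outer alpha rings that gate the entrance and inner beta rings that hold the protease sites. Its regulatory particle caps the barrel, with a base of ATPases that unfold and thread the substrate and a lid that removes ubiquitin. Proteins that fail to fold in the ER are exported to the cytosol and destroyed by this complex, and its subunit genes are transcribed in all cells. Immune cells and cells exposed to interferon also make inducible beta subunits, which replace their constitutive counterparts.

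The data for each library were a list of accessible peaks with the authors' fold enrichment over background for each peak. Their lengths ran from 28501 peaks (DMSO 3) to 62478 (DMSO 1). The lists do not give the number of reads behind a peak, and DNA without a called peak may still have been open. All 10 HSC genes checked, Hlf, Mecom and Procr among them, carried a region called in all 6 libraries within 5 kb. Of 20 marker genes of other blood and stromal cells 12 did, among them all 3 B cell and all 3 megakaryocyte genes, and Mpo and Csf1r of 5 neutrophil and monocyte genes. Since 58.1% of all protein-coding genes did, such regions do not tell the cell types apart.

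The DNA before 6 of the gene starts is shown first: the 3 genes whose regions ranked highest in the peak lists (Psmc4, Psma5, Psmd4) and the 3 inducible subunit genes (Psmb9, Psmb8, Psmb10), of which Psmb8 and Psmb10 ranked lowest. Each line gives the 200 bases before the RefSeq gene start (build GRCm38.p6, the assembly that mm10 denotes), 5′ to 3′ on the strand of the gene. Capitals mark matches, on either strand, to 6 motifs. They are the CCAAT box of the factor NF-Y, spelled as in its name, and the core of the antioxidant response element of NFE2L1 and NFE2L2, searched as TGACNNNGC. A site of ETS factors was searched as CCGGAAG and a GC box as GGGCGG. The core of the interferon-stimulated response element and the ER stress response element complete the list.
Psmc4, chr7:28050093-28050292, minus strand: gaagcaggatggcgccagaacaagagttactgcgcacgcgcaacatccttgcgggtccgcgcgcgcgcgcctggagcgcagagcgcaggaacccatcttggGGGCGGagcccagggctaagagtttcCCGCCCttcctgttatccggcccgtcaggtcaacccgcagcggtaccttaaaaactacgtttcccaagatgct
Psma5, chr3:108256726-108256925, plus strand: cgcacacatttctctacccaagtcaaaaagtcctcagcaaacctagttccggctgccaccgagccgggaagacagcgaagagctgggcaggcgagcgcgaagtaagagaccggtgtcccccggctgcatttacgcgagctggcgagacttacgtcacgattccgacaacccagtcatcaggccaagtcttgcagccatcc
Psmd4, chr3:95042615-95042814, minus strand: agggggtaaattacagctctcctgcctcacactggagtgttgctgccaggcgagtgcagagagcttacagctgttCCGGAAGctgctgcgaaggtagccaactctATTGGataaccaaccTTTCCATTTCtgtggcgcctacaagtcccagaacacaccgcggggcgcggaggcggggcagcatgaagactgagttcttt
Psmb9, chr17:34187331-34187530, minus strand: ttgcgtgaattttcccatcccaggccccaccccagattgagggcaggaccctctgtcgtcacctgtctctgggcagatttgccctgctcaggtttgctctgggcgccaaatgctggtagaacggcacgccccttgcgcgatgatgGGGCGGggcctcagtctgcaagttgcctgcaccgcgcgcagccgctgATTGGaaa
Psmb8, chr17:34197995-34198194, plus strand: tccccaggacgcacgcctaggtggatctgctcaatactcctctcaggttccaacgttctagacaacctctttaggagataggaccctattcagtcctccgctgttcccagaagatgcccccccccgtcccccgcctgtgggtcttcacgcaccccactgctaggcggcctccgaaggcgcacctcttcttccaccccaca
Psmb10, chr8:105938393-105938592, minus strand: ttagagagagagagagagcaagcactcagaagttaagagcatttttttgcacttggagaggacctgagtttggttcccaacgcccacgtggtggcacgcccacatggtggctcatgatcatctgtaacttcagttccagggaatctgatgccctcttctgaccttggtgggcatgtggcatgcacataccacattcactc
Psmc4 held GC boxes at 99 and 73 bases before the start. Psmd4 held an ETS site at 125, a CCAAT box at 95 and an interferon-stimulated core at 80 bases before the start. Psmb9 held a GC box at 55 and a CCAAT box at 8 bases before the start. Psma5, Psmb8 and Psmb10 held none of the 6 motifs in these 200 bases.

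Every proteasome subunit gene was accessible in both groups. All 35 genes carried at least 1 region called in all 6 libraries, against 58.1% of 21887 protein-coding genes. Of the 88 regions, 50 (56.8%) were called in all 6 libraries, against 25.1% of all regions, and 18 (20.5%) in 1 library only, against 32.4%. Of the genes, 22 had 1 region called throughout, 11 had 2 and 2 had 3, namely Psma3, an alpha-ring gene, and Psmb8. Gene starts are in the table for 29 of the 35, all but Psmb1, Psmb2, Psmb7, Psmc3, Psmd3 and Psmd7. Of these 29 genes, 28 had their start inside a region called in all 6 libraries, against 45.4% of 17492 protein-coding genes with a start in the table. The exception was Psmb10, whose start region was called in all libraries except DMSO 3. Regions within 5 kb of a gene can belong to a neighbour: 53 of the 88 also lay within 5 kb of another protein-coding gene, and 9 held the start of one. At the edge of the 5 kb window, a region 4.832 kb from Psmd1 with calls in 6 libraries was counted, and one 5.063 kb from the same gene with calls in 3 was not.

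The number of regions called varied with the library more than with the treatment. DMSO 1, 2 and 3 called 80, 60 and 52 of the 88 regions, and tunicamycin 1, 2 and 3 called 66, 67 and 68. The tunicamycin values lie within the range of the DMSO values. The mean was 72.7% ± 16.4 (SD, n = 3) after DMSO and 76.1% ± 1.14 (SD, n = 3) after tunicamycin, a difference of 3.41 percentage points, beside 8.02 points over all 82993 regions. Among the regions called in at least 2 libraries, DMSO 1, 2 and 3 called 100%, 84.3% and 74.3% of the 70 at proteasome genes, beside 90.5%, 62.7% and 45.1% of all 56122. Tunicamycin 1, 2 and 3 called 90.0%, 94.3% and 92.9%, beside 73.5%, 86.7% and 77.2%. The proteasome share was thus above the share of all regions in 6 of 6 libraries, by the most in the shortest list, DMSO 3. The 70 regions lie in or within 5 kb of genes, while the 56122 were taken at any distance from genes. The shares were not compared at like positions, so the excess cannot be read as particular to proteasome genes. Core particle regions were called at 75.2% ± 20.1 (SD, n = 3) after DMSO and 76.6% ± 2.13 (SD, n = 3) after tunicamycin, and regulatory particle regions at 69.9% ± 12.3 and 75.6% ± 4.22.

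**Figure D1:**
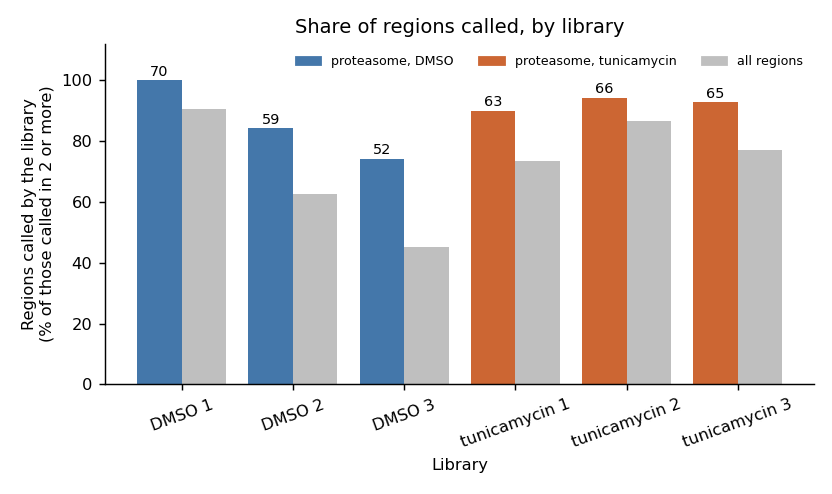
Percent of regions called by each library (vertical axis), among regions called in at least 2 libraries: 70 regions at proteasome genes (blue for DMSO, orange for tunicamycin, with the number called above the bar) and all 56122 regions (grey). The proteasome bar is above the grey bar in each library, and DMSO 3 has the lowest bars of both kinds.

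No region at a proteasome gene separated the groups by calls. None of the 88 was called in all 3 tunicamycin and no DMSO library, a pattern of 0.683% of all regions, and none showed the reverse, a pattern of 0.0976%. Against shares this low, a count of 0 among 88 says nothing particular about proteasome genes. For 1 region, presence in 3 against 3 libraries cannot give an exact permutation p below 0.10. In 3 further regions (3.41%) the calls came from every tunicamycin library and from DMSO 1 alone, against 4.39% of all regions. They lay 2.879 kb from Psmb8, near Tap2 (chr17:34204333-34204929), 3.957 kb from Psmd3, near Csf3 and Med24 (chr11:98699935-98700336), and 4.511 kb from Psmd13, near Cox8b (chr7:140903153-140903609). Without DMSO 1 these 3 became tunicamycin-only, against 5.77% of all regions under that setting. Of the 18 regions called in 1 library, DMSO 1 held 10, DMSO 2 held 1, DMSO 3 none, and tunicamycin 1, 2 and 3 held 3, 1 and 3. Of all 26871 regions called in 1 library, the same libraries held 38.3%, 6.69%, 8.62%, 8.98%, 26.6% and 10.8%.

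Strength was described by the percentile of a region's fold enrichment within its own list, taking the best region of each gene: the one called by most libraries and then ranked highest. Most subunit genes stood near the top. The median over the 35 genes was 90.55, 89.14 and 89.85 in DMSO 1, 2 and 3 and 91.28, 90.96 and 90.62 in tunicamycin 1, 2 and 3. The tunicamycin medians all lay above the DMSO medians, by 1.10 points in the mean. The median over all gene-start regions differed by 2.95 points in the same direction. No value for the best regions of all genes is given beside these medians. The best region was not the start region for Psmb10, Psmc6 and Psmd1. At Psmc6 it lay 1.748 kb from the gene and held the start of Styx, with a median of 95.6, while the start region had 94.9. At Psmd1 it lay 4.832 kb from the gene, with a median of 84.0, while the start region had 61.7. At Psmb1 it lay 1.31 kb from the gene and held the start of Tbp, with a median of 90.8. The region inside Psmb1 had 61.9. Among gene starts alone, the 28 proteasome start regions called throughout had a median percentile of 90.9, beside 84.4 for all 7367 gene-start regions called throughout, and 19 of the 28 were above that value. Taking each gene's median over the 6 libraries, the core particle genes had a median of 90.4 and the regulatory particle genes 91.6. By library, the core medians were 88.4, 89.1 and 87.3 in DMSO 1, 2 and 3 and 87.7, 91.0 and 90.1 in tunicamycin 1, 2 and 3. The regulatory medians were 93.3, 89.6 and 91.6 and then 92.0, 92.1 and 92.1. Both overlapped between the groups. Genes are not replicates and lists of different length give different percentiles, so these are descriptions with no test.

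Within the core particle the alpha-ring genes, which form the outer rings, ranked from 75.3 for Psma7 to 98.3 for Psma5 with a median of 96.1. The Psma5 region (chr3:108256647-108257537, holding the gene start) had percentiles of 97.4, 98.3 and 93.7 in DMSO 1, 2 and 3 and 98.4, 99.2 and 98.9 in tunicamycin 1, 2 and 3. Its tunicamycin values all lay above its DMSO values within the lists. Among regions called in all 6 libraries, where every library ranks the same 20810 regions, they ran from 91.4 to 96.9 after DMSO and from 96.5 to 97.9 after tunicamycin and overlapped (two-sided exact permutation p = 0.20). The constitutive beta-ring genes, which line the inner rings, ranged from 73.3 for Psmb4 to 97.7 for Psmb6 with a median of 88.6. The genes of the catalytic subunits stood at 97.7 for Psmb6 (beta 1 type), 82.3 for Psmb7 (beta 2 type) and 88.6 for Psmb5 (beta 5 type). At Psmb7 the best region (chr2:38643579-38644347) had percentiles of 86.1, 88.1 and 36.8 in DMSO 1, 2 and 3 and 77.3, 91.9 and 78.4 in tunicamycin 1, 2 and 3. DMSO 3 stood apart from the other 5 there.

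Of the inducible beta genes, Psmb8 and Psmb10 had the lowest medians of all 35 genes, and Psmb9 did not. The median over the 3 genes was 56.7, 54.8 and 36.5 in DMSO 1, 2 and 3. It was 68.4, 62.7 and 59.9 in tunicamycin 1, 2 and 3, so these medians did not overlap. That difference within the lists was not tested. The start region of Psmb9, which encodes an interferon-induced counterpart of Psmb6, lay at chr17:34186793-34187977 and also held the start of Tap1, a peptide transporter gene of antigen presentation, 226 bp away on the other strand. Its percentiles were 84.4, 87.5 and 84.1 in DMSO 1, 2 and 3 and 81.1, 88.3 and 85.3 in tunicamycin 1, 2 and 3. Values of the groups were interleaved. Psmb8, the counterpart of Psmb5, had its start region at chr17:34197991-34198721, with percentiles of 56.7, 37.1 and 12.4 in DMSO 1, 2 and 3 and 44.5, 62.7 and 59.9 in tunicamycin 1, 2 and 3. DMSO 3 was lowest, and DMSO 1 was higher than tunicamycin 1. Over the shared set the mean percentile was 13.3 ± 6.13 (SD, n = 3) after DMSO and 22.5 ± 6.23 (SD, n = 3) after tunicamycin, with an exact permutation p of 0.30. Psmb10, the counterpart of Psmb7, had its best region inside the gene at chr8:105936906-105937452, with percentiles of 49.5, 54.8 and 36.5 after DMSO and 68.4, 45.8 and 55.6 after tunicamycin. Tunicamycin 1 was highest, and tunicamycin 2 was below DMSO 1 and 2. The shared-set means were 22.0 ± 8.29 (SD, n = 3) and 24.5 ± 14.1 (SD, n = 3), with an exact permutation p of 1.

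In the regulatory particle the 6 base ATPase genes ranged widely, from 73.0 for Psmc1 and 73.5 for Psmc2 to 98.9 for Psmc4. The Psmc4 region (chr7:28049697-28050467, holding the gene start) had the highest median of all 35 genes, with percentiles of 99.96, 99.3 and 93.3 in DMSO 1, 2 and 3 and 98.2, 99.1 and 98.7 in tunicamycin 1, 2 and 3. Fold enrichment there, as the authors' peak caller gave it, was 9.73 to 18.4. Values of the groups overlapped, and DMSO 1 and DMSO 3 were the extremes. Among the other base subunits, Psmd4, a ubiquitin receptor, had a start region (chr3:95042274-95043194) with percentiles of 97.9, 98.2 and 98.3 after DMSO and 95.9, 99.9 and 99.4 after tunicamycin. The other ubiquitin receptor gene, Adrm1, had a median of 91.3. Psmd2, a scaffold of the base, had a start region (chr16:20651351-20652078) at 96.9, 92.3 and 46.4 in DMSO 1, 2 and 3 and 81.5, 89.9 and 94.8 in tunicamycin 1, 2 and 3. DMSO 3 again stood below the other 5. The 8 lid genes ranged from 71.9 for Psmd13 to 97.2 for Psmd11, with Psmd14, the deubiquitinase of the lid, at 78.8. The Psmd13 start region (chr7:140881673-140882705), which also held the start of Sirt3 on the other strand at 85 bp, had percentiles of 69.9, 67.8 and 55.8 after DMSO and 85.3, 74.0 and 75.5 after tunicamycin. All tunicamycin values were above all DMSO values within the lists. In the shared set the ranges of 32.1 to 45.4 and 40.1 to 69.1 overlapped, with means of 39.9 ± 6.97 (SD, n = 3) and 52.7 ± 14.9 (SD, n = 3) and an exact permutation p of 0.30. Start regions of Psma6 and Psmd11, and a region 3.506 kb from Psma3, also ranked higher after tunicamycin without overlap within the lists. No proteasome region called throughout ranked lower in that way. At each of these regions, Psma5 and Psmd13 included, the groups overlapped in the shared set. The share of all regions separated within the lists was not computed, so these examples cannot be judged against it.

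**Figure D2:**
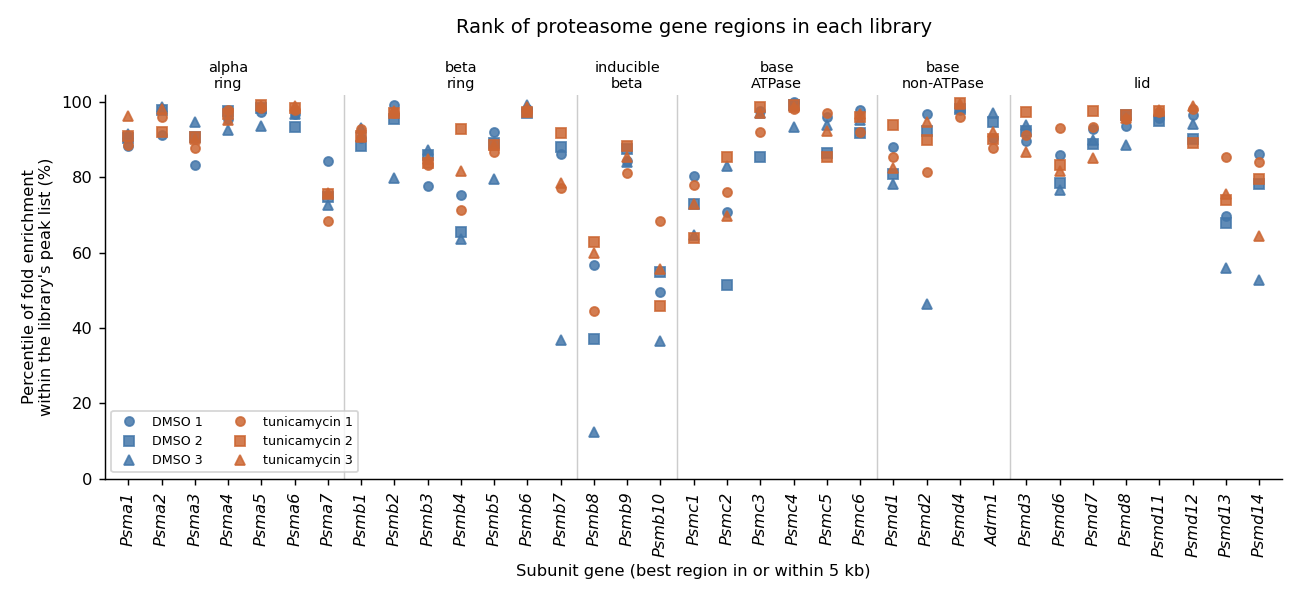
Percentile of fold enrichment within each library's own peak list (vertical axis, percent) for the best region of each of 35 subunit genes (horizontal axis, grouped by role). Blue symbols are DMSO libraries, orange symbols tunicamycin libraries, and the shape gives the replicate. Psmb8 and Psmb10 lie lowest, with medians of 50.6 and 52.2, and DMSO 3 falls below the other libraries at Psmb8, Psmb7 and Psmd2.

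The ranks of the 50 regions called throughout were next compared between groups over the shared set of 20810 regions. Each library then ranks the same number of regions, although a rank shows a position relative to other regions and not an amount of accessibility. Shared-set ranks still varied with list length. The median over all gene-start regions was 70.9 in DMSO 3, the shortest list, and 63.0 in DMSO 1, the longest. A region counted as separated when its 3 tunicamycin values and its 3 DMSO values did not overlap, which is the smallest exact permutation p, 0.10, that 3 against 3 can give. None of the 50 ranked higher after tunicamycin in this sense, against 4.66% of all shared regions, and 1 (2.00%) ranked lower, against 4.55%. Among the 28 start regions the counts were 0 and 1, against 4.29% and 3.84% of all gene-start regions. After Benjamini-Hochberg adjustment of the exact permutation test over all 20810 regions, 0 regions (0%) had an adjusted p under 0.05, a result this design fixes in advance because no unadjusted p falls below 0.10. The median difference over the 50 regions, tunicamycin minus DMSO, was 0.47 percentage points, beside −0.30 over all shared regions. Its sign depended on single libraries: it was −0.91 without DMSO 1, −0.66 without tunicamycin 1, −0.04 without tunicamycin 3 and 1.93 without DMSO 3. The direction also turned with the summary used. The library medians over the 50 regions averaged 71.9 ± 6.23 (SD, n = 3) after DMSO and 69.2 ± 1.69 (SD, n = 3) after tunicamycin. Differences of single regions ran from −17.5 to 16.8 points, with 27 positive and 23 negative. Core particle regions had a median of −0.90 (27 regions) and regulatory particle regions 0.48 (23 regions).

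Psma7, an alpha-ring gene, had the 1 region without overlap. It lay at chr2:180041686-180043353 and held the starts of Psma7 and of Ss18l1, which are 19 bp apart on opposite strands, so that the signal of the pair cannot be divided. Its percentiles over the shared set were 58.2, 56.0 and 63.0 in DMSO 1, 2 and 3 and 39.2, 43.2 and 49.7 in tunicamycin 1, 2 and 3. All tunicamycin values were below all DMSO values. The means were 59.1 ± 3.58 (SD, n = 3) and 44.0 ± 5.28 (SD, n = 3), a difference of −15.0 points (two-sided exact permutation p = 0.10, the smallest possible, adjusted p = 1). Within the lists the percentiles overlapped, at 72.7 to 84.2 after DMSO and 68.4 to 76.0 after tunicamycin. With peaks ranked by −log10 q instead of fold, the groups overlapped at this region and the difference was −8.14 points (exact permutation p = 0.20). The peak at Psma7 also had the widest range of widths among the 50 regions, covering 1484, 611 and 543 bp in DMSO 1, 2 and 3 and 918, 1069 and 1141 bp in tunicamycin 1, 2 and 3.

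The regions at the ends of the range of differences did overlap between groups. The most negative, −17.5 points, was a region 1.281 kb from Psmb8 (chr17:34196511-34196914, inside 5 kb of Tap1), at 11.5, 44.3 and 36 in DMSO 1, 2 and 3 and 20.4, 7.91 and 11 in tunicamycin 1, 2 and 3. DMSO 1 fell among the tunicamycin values. The most positive, 16.8 points, was the start region of Psmb4, a beta-ring gene (chr3:94886433-94887168), at 40.6, 42.5 and 51.4 after DMSO and 43.8, 80.9 and 60.2 after tunicamycin. Tunicamycin 1 fell among the DMSO values.

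**Figure D3:**
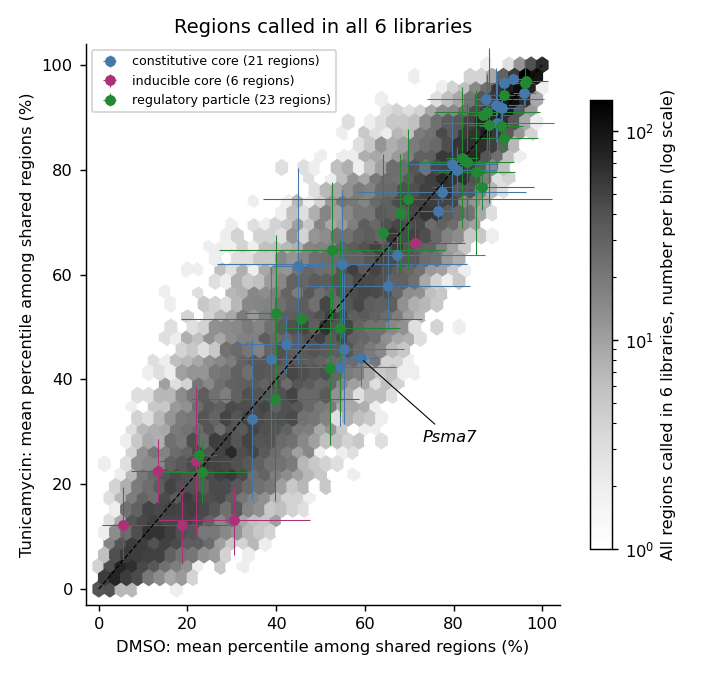
Mean percentile of fold enrichment among the 20810 regions called in all 6 libraries, DMSO (horizontal) against tunicamycin (vertical). Grey bins count all shared regions on a log scale, and coloured points with SD bars (n = 3 per axis) are the 50 proteasome regions, which lie on both sides of the dashed line of equal rank. Psma7, at 59.1 and 44.0, is the 1 region whose groups did not overlap.

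Peak widths overlapped between the groups. Over the 50 regions the median width was 763, 641 and 577.5 bp in DMSO 1, 2 and 3 and 722, 703.5 and 716.5 bp in tunicamycin 1, 2 and 3. The tunicamycin values lay within the DMSO range. The median difference per region was 64.3 bp, beside 49.7 bp over all shared regions, and both values moved with single DMSO libraries. Without DMSO 3, the shortest list, they were 16.5 and 3.67 bp, and without DMSO 1, the longest, 114.6 and 100.2 bp. Start regions of proteasome genes were 760 ± 113 bp wide (SD of the library medians, n = 3) after DMSO and 791 ± 20.8 bp after tunicamycin, beside 702 ± 141 and 781 ± 26.5 bp for all gene-start regions.

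The summit, the position of the highest signal in a peak, was placed close to the start of most subunit genes. Over the 28 start regions called throughout, the median position was −32.5 bp from the start (negative values are upstream), and 23 of 28 (82.1%) had their median summit within 150 bp of it, beside 76.4% of 7367 gene-start regions. In 21 of the 28 the median summit was upstream, beside 3863 of 7367 gene-start regions, whose median position was −6 bp. The position recurred between libraries: the 6 summits of a gene spanned 60 bp in the median, beside 63 bp over all gene-start regions, and 5 bp at Psmb9, 8 bp at Psmd12, a lid gene, and 9 bp at Psmc5, a base ATPase gene. At Psmb9 they lay between −83 and −78 bp in all 6 libraries. Psmd1, a scaffold gene of the base, was the 1 gene whose summits spanned over 200 bp, with tunicamycin 1 at 116 bp downstream and the other 5 libraries between −288 and −246 bp. At Psmb8 the summits lay 137 to 163 bp downstream of the start in all 6 libraries. At Psmb10 they lay 218 to 332 bp downstream in the 5 libraries with a call.

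**Figure D4:**
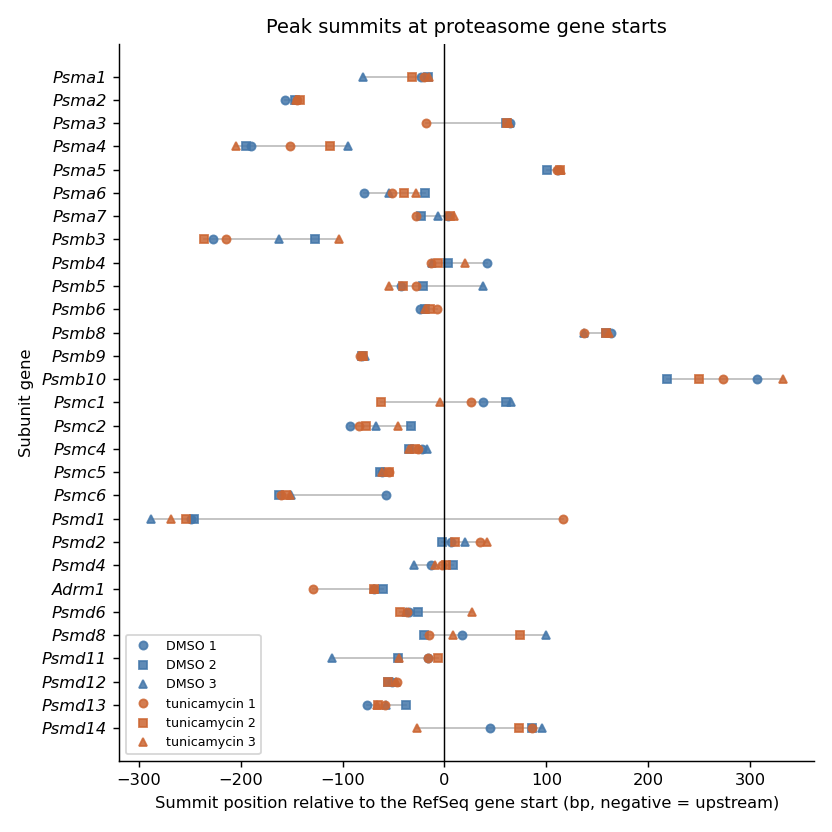
Position of the strongest peak's summit relative to the RefSeq gene start (horizontal axis, bp, negative values upstream) for 29 subunit genes in each library (blue DMSO, orange tunicamycin, shape by replicate; the line joins the lowest and highest). Summits of both groups fall together for most genes, within 5 bp at Psmb9 and over 404 bp at Psmd1.

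Several subunit genes shared their accessible start with a divergent neighbour. Of the 29 genes, 5 (17.2%) had a start of another protein-coding gene on the opposite strand within 1 kb upstream. That is beside 8.48% of all 17492 genes and 17.0% of the 7941 genes whose start lay in a region called throughout. The pairs were Psma7 and Ss18l1 at 19 bp, Psmd13 and Sirt3, a mitochondrial deacetylase gene, at 85 bp, Psmc5 and Ftsj3 at 101 bp, Psma2 and Mrpl32, a mitochondrial ribosomal protein gene, at 205 bp, and Psmb9 and Tap1 at 226 bp. Each pair lay within 1 region.

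In CpG content the start windows of proteasome genes lay close to those of all accessible gene starts, and in GC content closer to those of all genes. Over 31 windows of 29 genes (250 bases before to 50 after the start) the median ratio of observed to expected CpG was 0.796, beside 0.801 for windows with a start in a region called throughout and 0.567 for all windows. The median GC content was 56.7%, beside 62.0% and 56.3%. Psmb10 had a ratio of 0.192 and a GC content of 45.7%. An ETS site was found in 11 of 29 genes, beside 23.1% of 7941 genes with a start in a region called throughout and 12.9% of all genes. Of those 11, 10 belonged to the regulatory particle (of 15 genes with a window), among them Psmd4, Psmc1, Psmc2 and Psmc6, and 1, Psma6, to the core particle (of 14). The antioxidant response element core was found in 5 genes, Psmb5, Psmb6, Psmc6, Psmd12 and Adrm1, beside 16.5% and 14.8%. A CCAAT box was found in 12 genes, beside 42.9% and 42.3%, and a GC box in 17, beside 72.0% and 49.2%. Psma6 counted among the 12 only through a second start that lay in no called region. The interferon-stimulated core matched 2 genes, Psmb3 and Psmd4, beside 3.06% and 3.94%, and the ER stress response element matched 0 of 29, beside 0.176% and 0.166%. A match describes letters in this window only. Motifs could overlap, and no test was made of these shares.

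Among the genes that assemble, activate and regulate the proteasome, a few regions had ranks without overlap, in both directions, as among all shared regions. Of 33 such genes 30 carried a region called in all 6 libraries. The exceptions were Psmd10 (gankyrin, an assembly chaperone) and Psma8 (a testis alpha subunit), which had no region in any library, and Psmb11 (a thymus beta subunit), which had one called in 1 library. Of their 76 regions none was tunicamycin-only or DMSO-only. Of the 42 called throughout, 2 ranked higher and 3 lower after tunicamycin without overlap, beside the 4.66% and 4.55% of all shared regions. Counts this small are near what those shares give, and say nothing particular about these genes. No difference between this list and the subunit genes was tested.

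Psme4, which encodes the activator PA200, had a start region (chr11:30771361-30772552) at 60.05, 61.5 and 53.0 in DMSO 1, 2 and 3 and 88.6, 76.7 and 76.8 in tunicamycin 1, 2 and 3. All tunicamycin values were higher, by 22.5 points in the mean. Psmg4, an assembly chaperone gene, had a start region (chr13:34162741-34163641) at 78.9, 77.1 and 77.8 after DMSO and 85.2, 84.0 and 83.5 after tunicamycin. It was higher by 6.28 points. A region near the activator genes Psme1 and Psme2 (chr14:55584894-55585775) stood at 86.7, 76.8 and 91.9 after DMSO and 58.5, 46.6 and 57.7 after tunicamycin, a difference of −30.8 points. It held the start of Emc9, a gene of an ER membrane complex, and lay 1.665 kb from Psme2 and 3.367 kb from Psme1. A region inside Nfe2l2, which encodes the stress factor NRF2 (chr2:75682845-75683488), stood at 68.9, 90.7 and 76.2 after DMSO and 49.1, 67.7 and 67.7 after tunicamycin. The start region of Ubqln4, a shuttle of ubiquitinated proteins, stood at 66.8, 81.5 and 94.5 after DMSO and 66.4, 66.7 and 60.9 after tunicamycin, and also held the start of Lamtor2. Each of the 5 had an exact permutation p of 0.10, the smallest possible, and an adjusted p of 1. With peaks ranked by −log10 q the groups still did not overlap at Psme4 (17.7 points), Psmg4 (4.35) and the Psme1 and Psme2 region (−24.3), and they overlapped at Nfe2l2 and Ubqln4.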

How the data were processed

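ATAC-seq peak lists of 6 libraries (3 DMSO, 3 tunicamycin) were used, 1 list per library, grouped by the treatment in the labels. Reads were handled with Bowtie2 2.2.9, Trim Galore 0.4.4, MACS2, Picard and featureCounts on build mm10, per the submitters' processing notes. For read filters, the transposase shift and the peak threshold, the sources used here give no settings. The largest q-value in a list ran from 0.04824 (DMSO 2) to 0.04999 (DMSO 3), so all listed peaks had q under 0.05. As the authors deposited them, peaks carry a score, a fold enrichment (ratio), −log10 p and −log10 q values, and a summit. Depth is unknown, so no interval was computed.

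Overlapping peaks (1 bp or more) of the autosomes, X and Y were joined into regions, each called in the libraries that had a peak there. A region's rank used its highest fold, as a percentile of the library's list or of the regions called in all 6 libraries. Two-sided exact permutation tests over libraries, with Benjamini-Hochberg adjustment over all shared regions, compared ranks. Gene spans, starts and sequences came from RefSeq tables for GRCm38.p6. Members and lists were chosen with earlier results of these data known. Named are members with separated calls or shared-set ranks and those without a region called throughout. The 3 highest and 3 lowest by median percentile and the inducible subunits are named too. Psmb7, Psmd2, Psmd1, Psmb4, the regions of Psma6, Psmd11 and Psma3 separated within the lists, and the other examples were chosen after their values were seen. Same-numbered libraries did not deviate together (correlations −0.0962, −0.0213 and 0.0245). The merging, rank and permutation steps were tested on simulated data of 4000 regions. Software was Python 3.11.15 with SciPy 1.17.1, pandas 2.3.3 and NumPy 2.4.6, and figures used matplotlib 3.10.9.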

Additional observations from a re-analysis of the deposited data

How the results depend on the processing

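Under 12 alternative settings (peaks of −log10 q at least 5, lists of one length, a 1 kb window, 50% cover, ranking by −log10 q, same-numbered pairs, and each of 6 libraries left out), 81 of 98 values kept within 1.5 times the count or 1 SD of the reported value and 17 did not. The SD was that of the library values within groups: 11.6 points for calls, 4.56 points for rank and 67 bp for width. Each is larger than the reported difference (3.41 points, 0.47 points and 64.3 bp), so a value that changed sign could count as kept. All 35 genes kept a region called in every library used, except that 29 did when a call had to cover 50% of the region. Then Psma7 was among the 6 lost, 1 region (Psma6) ranked higher without overlap and 0 lower, beside 4.62% and 4.41% of all shared regions. Ranking by −log10 q gave 3 higher (Psma5, Psmb3, Psmd11) and 1 lower (Adrm1), none of them Psma7, beside 5.48% and 5.204%. With same-numbered libraries as a replicate block, 4 regions moved up and 3 down in all 3 pairs, beside 11.6% and 10.8% of all shared regions, and of the 6 libraries only tunicamycin 3 correlated best with its own number. Leaving out 1 library eases the criterion, and gave 1 to 6 regions higher and 1 to 8 lower; the 8 came without DMSO replicate 1, where 16.3% of all shared regions ranked lower, and the 6 without DMSO replicate 3 (10.3% of all) and without tunicamycin replicate 1 (9.04%). Tunicamycin-only regions numbered 0 to 3, the 3 without DMSO replicate 1. The difference in regions called ranged from −3.41 points without DMSO replicate 3 to 14.8 without DMSO replicate 1, and over all regions the same omissions gave −0.593 and 22.4 points, so the sign turned without DMSO 3 in both. The median rank difference ranged from −0.91 (without DMSO replicate 1) to 1.93 (without DMSO replicate 3), and the median width difference from 16.5 to 114.6 bp (without DMSO replicates 3 and 1). The causes were not tested.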
